A study of Mus musculus with 4 samples.

Results

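Ribosomal protein genes were compared between NSCL61-sox11 and NSCL61 cells. The genes were chosen by symbol: Rpl or Rps with a number, Rpsa, and Rplp0 to Rplp2 for the cytosolic ribosome, and Mrpl or Mrps with a number for the mitochondrial one. Of 18193 mouse genes with a probe set assigned to them alone, 125 met this choice, 49 cytosolic and 76 mitochondrial. All 76 mitochondrial and 45 of the 49 cytosolic genes passed the filter on low signal, as did 13084 genes in all. Another 31 cytosolic and 2 mitochondrial genes, Rpl5 among the cytosolic ones, are listed only on probe sets that name several genes and were not analysed here.

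NSCL61 is a line of neural stem cells from C57BL/6 mouse embryos (p53-/-), labelled as similar to cells that initiate glioma, and NSCL61-sox11 is its derivative that expresses Sox11, a transcription factor of neural progenitors and young neurons. Both lines therefore lack p53, both stem from telencephalon of embryonic day 14.5, and the growth protocol given for all samples is a serum-free culture of floating spheres. There were 2 Affymetrix M430_2 arrays per line. The submitters' design text says that the derivative lost its ability to form tumours after transplantation and asks which genes differ between the lines. NSCL61-sox11 is represented by 1 line, and no label ties the arrays of a line to separate cultures. The p-values thus cover the spread from array to array alone, and that spread may be technical.

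Ribosomes of the cytosol translate the messenger RNAs of the nuclear genome, and their protein genes are among the most strongly and evenly expressed genes of growing cells. Many of their messenger RNAs begin with a run of pyrimidines (the TOP motif), through which translation responds to mTOR. Mitochondria have a ribosome of their own, whose proteins are also encoded in the nucleus and imported, and which makes a small set of hydrophobic subunits of the respiratory chain.

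Sox11 followed the labels, with levels of 7.74 and 7.97 (log2 signal) in NSCL61-sox11 cells, against 5.09 and 4.82 in NSCL61 cells (limma, adjusted p = 0.00013). Both NSCL61 values lie under 5.15, where the signal filter ends, so no fold is given. Of 15 markers of neural stem and progenitor cells, 12 passed the signal filter, of which 1 rose, Slc1a3 (log2 fold change 1.19, adjusted p = 0.0030), and 3 fell, among them Sox2 (-1.70, adjusted p = 0.0019) and Pax6 (-0.45, adjusted p = 0.040). Nestin (Nes) lay at levels of 9.37 and 9.51 in NSCL61-sox11 cells, against 9.48 and 9.31 in NSCL61 cells, on the log2 scale. Sox2 lay at 8.68 and 8.97 (log2) in NSCL61-sox11 cells, against 10.29 and 10.75 in NSCL61 cells, and Olig2, Prom1 and Fabp7 were below the filter. Ptprc, the pan-leukocyte marker, was at 3.07 and 3.11 in NSCL61-sox11 cells, against 3.31 and 3.04 in NSCL61 cells (log2), below the filter. Of 7 markers of microglia and blood cells, 2 passed the filter, Csf1r and Cd68, with mean levels between 5.53 and 6.62 (log2). Neither passed the test (log2 fold changes of -0.15 and -0.15, limma, adjusted p = 0.40 and 0.37). Markers of fibroblasts and meninges moved with the lines: 5 of 7 tested rose, and the summed linear signal of the list was 3799 and 7118 in NSCL61-sox11 cells, against 1097 and 1876 in NSCL61 cells, with Lum below the filter. Of 5 markers of endothelial and mural cells 2 rose, and of 5 neuronal markers 2 rose and 1 fell. Their part in the results below was not tested, and in bulk RNA fewer cells of a type and less RNA per cell cannot be told apart. Over all 13084 genes, 2510 passed the test (limma with Benjamini-Hochberg adjustment, adjusted p under 0.05), which is 19.2%; 1308 rose (10.0%) and 1202 fell (9.19%).

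The cytosolic ribosomal protein genes showed few calls and small changes between the lines. Of 45 tested, 1 rose, Rpl22l1, and 44 did not pass the test. No member fell (limma). At an unadjusted p under 0.05, 2 were higher in NSCL61-sox11 cells (4.44%, against 17.0% of all genes) and 7 lower (15.6%, against 17.4%). The share called was thus 2.22%, against 19.2% of all genes. Their log2 fold changes ran from -0.24 to 0.27 around a median of -0.00, while the median over all genes was -0.02. All 45 changed by less than 0.3 (log2), against 72.6% of all genes, and the SD over genes was 0.11, against 0.48. For 44 of the 45, the 95% confidence interval of the log2 fold change lay inside ±0.5, a 1.41-fold change either way. The arrays did not overlap between the lines for 11 genes that were higher and 14 that were lower in NSCL61-sox11 cells, against 29.3% and 32.9% of all genes. These counts depend on single arrays, and a line left with 1 array is assumed to vary like the other line. Without NSCL61-sox11 array 1, 1 rose and 7 fell, so that 17.8% were called, against 20.6% of all genes. Without NSCL61-sox11 array 2, 5 rose and 1 fell, 13.3%, against 18.9%. Without NSCL61 array 1, or without NSCL61 array 2, none was called (limma; 1 at an unadjusted p under 0.05 each time), against 6.94% and 7.21% of all genes.

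Most of these genes gave a signal near the top of the array's scale. Their median level was 13.60 (log2), the highest value in the table was 14.62, and 34 of the 45 had mean levels of 13 or more. None of these 34 was called (limma; at an unadjusted p under 0.05, 1 was higher and 6 were lower). Of the 73 other genes at such levels, 8 rose and 8 fell, 21.9% together, and their median absolute log2 fold change was 0.08, against 0.06 for the 34. The median level of these 73 was 13.31 (log2), against 13.75 for the 34 members; a part of the scale's upper end in the members' small changes was not tested. Of the tested genes, 24 belong to the large subunit, with a median log2 fold change of -0.02, and 21 to the small one, with 0.03.

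Rplp0, a protein of the stalk that recruits elongation factors and a frequent reference gene in PCR, had levels of 14.19 and 14.20 in NSCL61-sox11 cells, against 14.19 and 14.19 in NSCL61 cells (log2). All 4 arrays thus gave nearly the same level, and the log2 fold change was 0.00 ± 0.04 (SE; limma, adjusted p = 0.98). Rpl41, which encodes a very short peptide of the large subunit, lay at 14.35 and 14.22 in NSCL61-sox11 cells, against 14.22 and 14.19 in NSCL61 cells. Rps2, a small-subunit protein at the messenger RNA channel, lay at 14.27 and 14.27 in NSCL61-sox11 cells, against 14.24 and 14.16 in NSCL61 cells. Neither passed the test (log2 fold changes of 0.08 and 0.07, limma, adjusted p = 0.36 and 0.31).

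Members known for roles of their own did not pass the test either. Rpl11, which binds Mdm2 when ribosome assembly is disturbed, had a log2 fold change of -0.08 (limma, adjusted p = 0.42). Rps19, the gene most often mutated in Diamond-Blackfan anaemia in humans, had a log2 fold change of -0.02 (adjusted p = 0.83). Rps6, the classic substrate of the S6 kinases, had a log2 fold change of 0.03 (adjusted p = 0.84) and Rpsa, also known as the laminin receptor, one of 0.06 (adjusted p = 0.43). The genes at the lower end, Rpl14 (log2 fold change -0.24, adjusted p = 0.14) and Rps9 (-0.17, adjusted p = 0.078), had lower arrays throughout NSCL61-sox11, yet did not pass. At the upper end stood Rpl27a (log2 fold change 0.25, adjusted p = 0.27) and Rps26 (0.14, adjusted p = 0.076). Rps6, Rpl14 and Rpl27a were read on dim probe sets for this set, whose median level was 13.60 (log2). Rps6 lay at 9.67 and 9.58 in NSCL61-sox11 cells, against 9.63 and 9.55 in NSCL61 cells. Rpl14 lay at 8.57 and 8.42 in NSCL61-sox11 cells, against 8.74 and 8.73 in NSCL61 cells. Rpl27a lay at 7.94 and 8.25 in NSCL61-sox11 cells, against 7.76 and 7.94 in NSCL61 cells. Fau and Rps27l, ribosomal proteins that the symbols leave out, had log2 fold changes of 0.03 and 0.06 (adjusted p = 0.80 and 0.65).

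Rpl22l1, the paralog of Rpl22, was the 1 cytosolic member that rose. Its levels were 12.40 and 12.38 in NSCL61-sox11 cells, against 12.09 and 12.15 in NSCL61 cells (log2), so the lines did not overlap. That is a 1.21-fold higher signal (log2 fold change 0.27 ± 0.06, SE; limma, adjusted p = 0.022). In mice the Rpl22 protein is known to repress Rpl22l1. Rpl22 itself had levels of 13.43 and 13.44 in NSCL61-sox11 cells, against 13.52 and 13.54 in NSCL61 cells (log2 fold change -0.10 ± 0.04, adjusted p = 0.16). A second Rpl22 probe set fell by 0.22 on the log2 scale (adjusted p = 0.046), and the third had a log2 fold change of 0.17 (adjusted p = 0.43). The gene therefore lay lower in NSCL61-sox11 cells on the 2 brighter of its 3 probe sets, and only 1 of them passed. A part of Rpl22 in the rise of Rpl22l1 was not tested. Scaling to the poly-A control probe sets subtracts 0.40 from the log2 fold change of every gene, which puts Rpl22l1 at -0.13. Rpl7l1, a nucleolar relative of Rpl7, had a log2 fold change of -0.04 (adjusted p = 0.85). Rps19bp1, a partner of Rps19 and not a ribosomal protein despite its symbol, had one of -0.17 (adjusted p = 0.38).

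**Figure D1:**
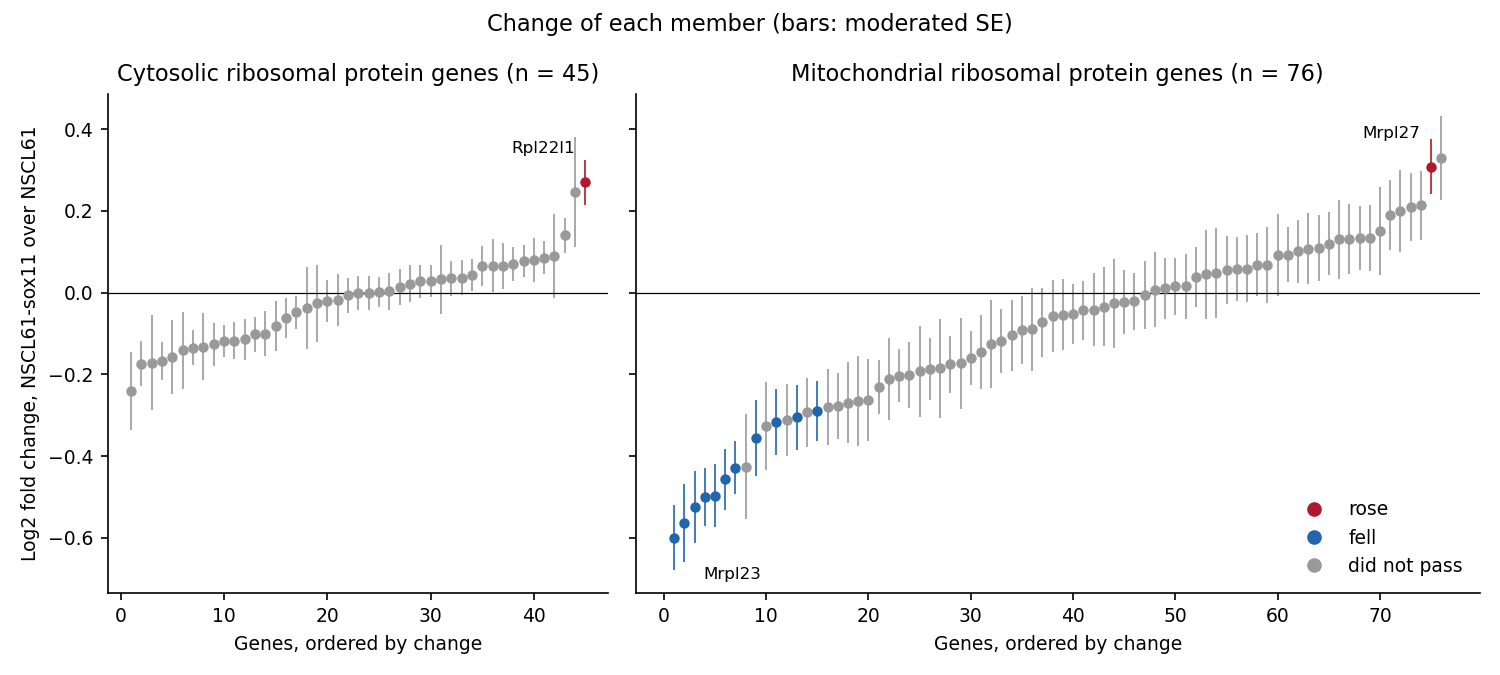
Log2 fold change of each tested ribosomal protein gene, NSCL61-sox11 over NSCL61, with genes ordered by change on the horizontal axis and bars of 1 moderated SE. The 45 cytosolic genes lie between -0.24 and 0.27 and the 76 mitochondrial genes between -0.60 and 0.33; red genes rose, blue genes fell and grey genes did not pass the test.

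Other probe sets of the cytosolic genes gave more falls. Of their 94 tested probe sets, 6 were called, 5 of them lower in NSCL61-sox11 cells. Besides the Rpl22 one, they were 1 of Rpl13a (log2 fold change -0.21, limma, adjusted p = 0.040), 2 of Rps24 (-0.23 and -0.27, adjusted p = 0.0498 and 0.036) and 1 of Rps9 (-0.78, adjusted p = 0.042). The Rps9 probe set had levels of 7.92 and 7.36 in NSCL61-sox11 cells, against 8.56 and 8.27 in NSCL61 cells, while the brightest Rps9 probe set lay at 13.55 and 13.42 in NSCL61-sox11 cells, against 13.66 and 13.66 in NSCL61 cells (log2). Probe sets of a gene thus did not give 1 value, and the brightest Rpl13a probe set had a log2 fold change of -0.00. Of the 45 representative probe sets, 11 carry the suffix _x_at and 2 the suffix _s_at, which mark probes shared with related transcripts; ribosomal protein genes have many processed pseudogenes. The 4 cytosolic genes below the signal filter, Rps16, Rpl3l, Rpl39l and Rps4l, were not called in a fit of all probe sets, with log2 fold changes between -0.30 and 0.17.

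The mitochondrial ribosomal protein genes showed 1 rise and 11 falls among 76, and 64 did not pass the test. The 11 falls are 14.5% of the members, against 9.19% of all genes and 12.9% of the 5346 other genes within the same range of levels. The 1 rise is 1.32%, against 10.0% of all genes. Calls in either direction made up 15.8%, below the 19.2% of all genes. The median log2 fold change was -0.06, with quartiles of -0.26 and 0.06 and an SD of 0.21 over genes, and 47 of the 76 values were negative. At an unadjusted p under 0.05, 25 genes were lower in NSCL61-sox11 cells (32.9%, against 17.4% of all genes) and 4 higher (5.26%, against 17.0%). Among the 5346 other genes within the same range of levels, 23.3% were lower and 18.6% higher. Arrays did not overlap for 31 genes that were lower, 40.8%, against 32.9% of all genes and 37.1% of those 5346. Members that were higher without overlap numbered 17, which is 22.4%, against 29.3% of all genes and 31.4% of those 5346. Over both directions, 62.2% of all genes did not overlap.

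The arrays of a line differed in these genes. NSCL61-sox11 array 1 gave a higher level than array 2 in 68 of 76 mitochondrial genes and in 38 of 45 cytosolic ones, against 53.2% of all genes. NSCL61 array 1 was above array 2 in 56 and 28 of them, against 49.4% of all genes. The part of this array difference in the calls was not tested. Without NSCL61-sox11 array 1, which is the higher one, 22 mitochondrial genes fell (28.9%, against 10.1% of all genes) and 1 rose; without NSCL61-sox11 array 2, 7 fell (9.21%, against 9.41%) and 2 rose, and the median log2 fold change was 0.0053. Without NSCL61 array 1, Mrps6 alone was called, and without NSCL61 array 2 no member was (limma; 12 and 14 at an unadjusted p under 0.05).

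**Figure D2:**
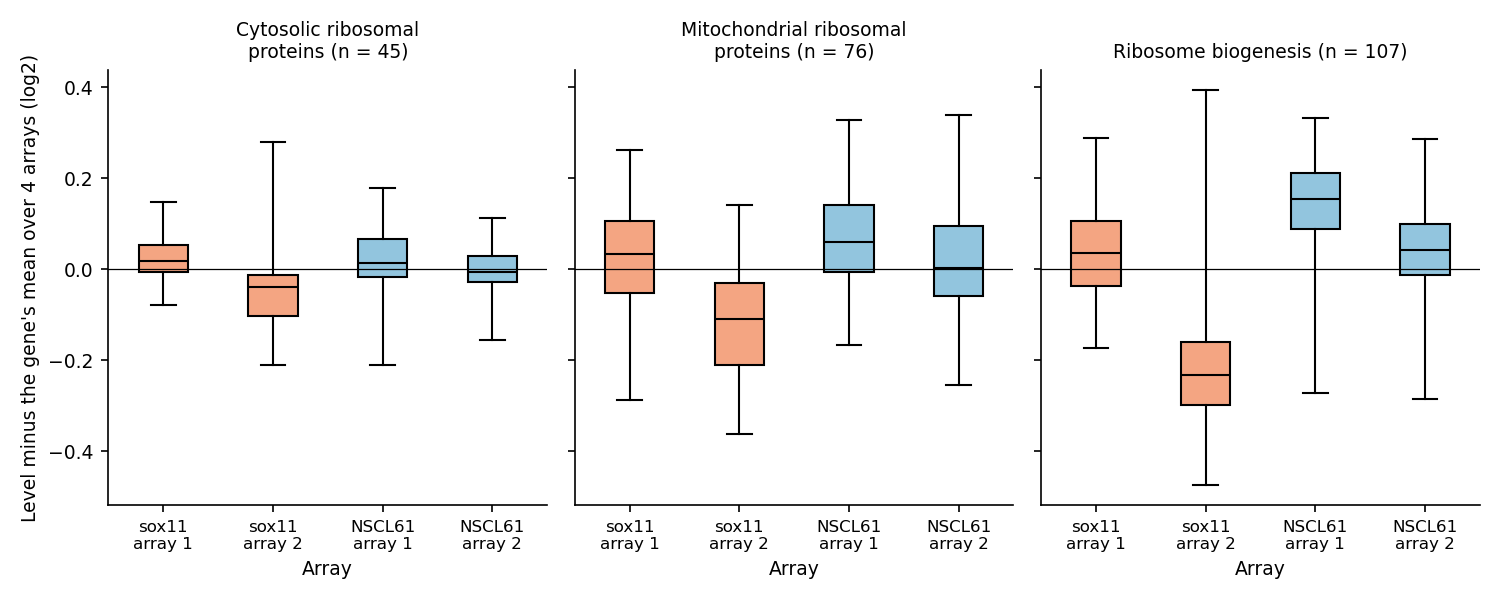
Deviation of each gene's level from its mean over the 4 arrays (log2, vertical axis) on each array. Panels show the cytosolic and the mitochondrial ribosomal protein genes and 107 genes of ribosome biogenesis, with NSCL61-sox11 arrays left of NSCL61 arrays. The median deviation of the mitochondrial genes was 0.03 and -0.11 on the NSCL61-sox11 arrays and 0.06 and 0.00 on the NSCL61 arrays; that of the cytosolic genes was 0.02 and -0.04 on the NSCL61-sox11 arrays and 0.01 and -0.01 on the NSCL61 arrays.

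Among large-subunit members of the mitochondrial ribosome, 7 of 47 fell and 1 rose, with a median log2 fold change of -0.03. Mrpl23, at the exit of the peptide tunnel in its bacterial counterpart, had the largest fall, with levels of 9.07 and 9.04 in NSCL61-sox11 cells, against 9.64 and 9.67 in NSCL61 cells. Its signal was 1.51-fold lower (log2 fold change -0.60 ± 0.08, SE; limma, adjusted p = 0.0050). The arrays of each line lay close together and the lines did not overlap. Mrpl57, a protein without a counterpart in bacteria, had levels of 10.41 and 10.42 in NSCL61-sox11 cells, against 10.96 and 10.87 in NSCL61 cells (log2 fold change -0.50 ± 0.07; adjusted p = 0.0067). Mrpl17, which has a bacterial counterpart, lay at 11.11 and 11.15 in NSCL61-sox11 cells, against 11.52 and 11.59 in NSCL61 cells (log2 fold change -0.43 ± 0.06; adjusted p = 0.0078). Mrpl52, also without one, lay at 10.16 and 10.07 in NSCL61-sox11 cells, against 10.57 and 10.57 in NSCL61 cells (log2 fold change -0.46 ± 0.07; adjusted p = 0.010). In these 3 genes too both NSCL61-sox11 arrays were below both NSCL61 arrays, and in Mrpl52 the other tested probe sets also fell, by 0.59 and 0.60 on the log2 scale.

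Mrpl38, which bacteria lack as well, had levels of 9.63 and 9.49 in NSCL61-sox11 cells, against 10.05 and 10.12 in NSCL61 cells (log2 fold change -0.53 ± 0.09; limma, adjusted p = 0.011). Its representative is an _s_at probe set, and without such probe sets the gene had a log2 fold change of -0.01 and was not called. Smaller falls were those of Mrpl1, counterpart of the L1 stalk protein of bacteria, and Mrpl24. Mrpl1 lay at 8.44 and 8.40 in NSCL61-sox11 cells, against 8.84 and 8.71 in NSCL61 cells (log2 fold change -0.36 ± 0.09; adjusted p = 0.046). A dim further probe set of Mrpl1, with levels near 5, rose by 0.50 (log2; adjusted p = 0.030), so its probe sets disagree. Mrpl24 lay at 10.46 and 10.40 in NSCL61-sox11 cells, against 10.68 and 10.76 in NSCL61 cells (log2 fold change -0.29 ± 0.07; adjusted p = 0.043).

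Mrpl27, counterpart of the bacterial protein that reaches into the peptidyl transferase centre, was the 1 mitochondrial member that rose. It had levels of 10.87 and 10.85 in NSCL61-sox11 cells, against 10.54 and 10.57 in NSCL61 cells, a 1.24-fold higher signal with no overlap (log2 fold change 0.31 ± 0.07, SE; limma, adjusted p = 0.027). The same subtraction with poly-A scaling puts its log2 fold change at -0.10. Its second tested probe set had a log2 fold change of 0.26 (adjusted p = 0.14). In Mrpl11 a second probe set rose by 0.36 (log2; adjusted p = 0.022), while the brightest had 0.13 (adjusted p = 0.42). Mrpl51 had a log2 fold change of -0.18 (adjusted p = 0.14). Mrpl19, with a log2 fold change of -0.43 ± 0.13, was as far down as Mrpl17 but did not pass (adjusted p = 0.070), its arrays being 10.19 and 9.90 in NSCL61-sox11 cells, against 10.59 and 10.35 in NSCL61 cells (log2).

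Of the 29 small-subunit members, 4 fell and 25 did not pass, and their median log2 fold change was -0.13. Mrps28 had levels of 9.31 and 9.14 in NSCL61-sox11 cells, against 9.74 and 9.84 in NSCL61 cells (log2 fold change -0.56 ± 0.09, SE; limma, adjusted p = 0.011). Mrps6, counterpart of bacterial S6, lay at 11.89 and 11.97 in NSCL61-sox11 cells, against 12.34 and 12.52 in NSCL61 cells (log2 fold change -0.50 ± 0.08; adjusted p = 0.0085). The second Mrps6 probe set fell by 0.49 (log2; adjusted p = 0.012), and both separate the lines without overlap. Mrps16, mutated in humans with a combined respiratory chain deficiency, lay at 10.46 and 10.31 in NSCL61-sox11 cells, against 10.70 and 10.71 in NSCL61 cells (log2 fold change -0.32 ± 0.08; adjusted p = 0.043). Mrps34, mutated in human Leigh syndrome, lay at 10.25 and 10.12 in NSCL61-sox11 cells, against 10.48 and 10.51 in NSCL61 cells (log2 fold change -0.30 ± 0.08; adjusted p = 0.046). In each of these the lowest NSCL61 array was above both NSCL61-sox11 arrays. Mrps15 had the highest value of all members, 0.33 ± 0.10 (log2), without passing (adjusted p = 0.078). Mrps36, now known as a subunit of the 2-oxoglutarate dehydrogenase complex and not of the ribosome, had a log2 fold change of 0.06 (adjusted p = 0.68).

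**Figure D3:**
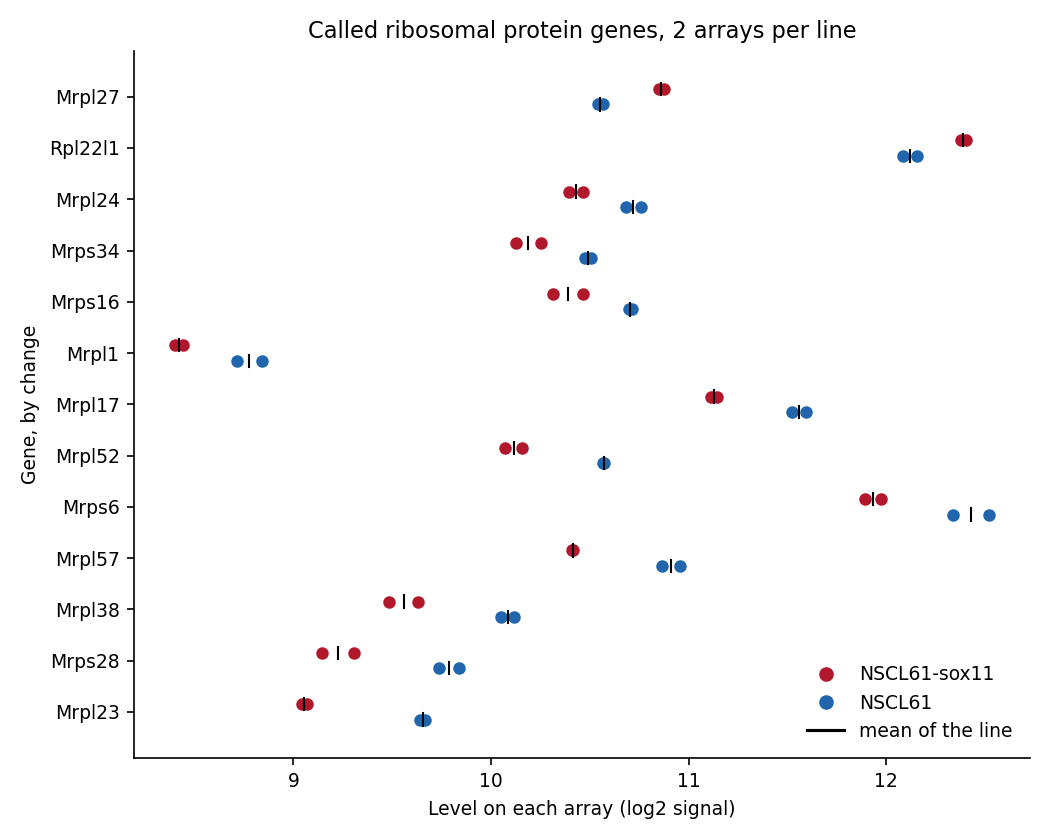
Level (log2 signal, horizontal axis) on each array of the 13 ribosomal protein genes that passed the test, ordered by change, with NSCL61-sox11 arrays in red above NSCL61 arrays in blue and a black line at each line's mean. The arrays of the lines do not overlap in any of the 13; Mrpl27 and Rpl22l1 are higher in NSCL61-sox11 cells and the other 11 lower.

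Of the 11 genes that fell, 5 have 1 tested probe set and 6 have others. A further probe set was also called lower in 2 of them, Mrpl52 and Mrps6. The second tested probe sets of Mrpl17 and Mrpl57, both dim, had log2 fold changes of -0.05 and -0.13 (limma, adjusted p = 0.79 and 0.49). Neither gene was called when its probe sets were averaged. Over all tested probe sets of mitochondrial members, 17 of 140 were called, 14 of them lower in NSCL61-sox11 cells.

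Promoter sequences are shown for Rplp0, which was level across arrays, for both genes that rose, and for 3 that fell and hold a searched motif. They come from RefSeq (GRCm38.p6) and run from 100 bases before to 20 after the annotated start, written 5′ to 3′ on the gene's strand. Capitals mark CCGGAAG or its reverse complement (the core bound by ETS factors such as GABP), the NRF1 motif (GCGCA, any base, GCGC; NRF1 regulates nuclear genes for mitochondria), and a TOP-like run, meaning C followed by at least 4 pyrimidines within 2 bases of the start. The windows are chr5:115559367-115559486 (+), chr3:28805408-28805527 (+), chr11:94653691-94653810 (+), chr14:57826139-57826258 (+), chr14:54426809-54426928 (+) and chr7:105811068-105811187 (-), in the order of the lines.
Rplp0: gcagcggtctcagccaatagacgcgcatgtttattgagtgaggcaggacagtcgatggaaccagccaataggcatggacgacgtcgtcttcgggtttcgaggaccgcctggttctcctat
Rpl22l1: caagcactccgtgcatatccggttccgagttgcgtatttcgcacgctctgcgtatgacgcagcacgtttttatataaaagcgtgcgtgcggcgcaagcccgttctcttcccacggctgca
Mrpl27: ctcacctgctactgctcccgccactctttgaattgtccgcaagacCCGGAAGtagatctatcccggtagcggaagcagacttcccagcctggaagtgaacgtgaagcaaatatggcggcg
Mrpl57: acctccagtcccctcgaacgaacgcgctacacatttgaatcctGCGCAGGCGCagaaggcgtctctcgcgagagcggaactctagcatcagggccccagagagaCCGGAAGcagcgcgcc
Mrpl52: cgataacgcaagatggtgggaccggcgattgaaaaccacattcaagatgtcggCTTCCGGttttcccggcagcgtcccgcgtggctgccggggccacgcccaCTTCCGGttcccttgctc
Mrpl17: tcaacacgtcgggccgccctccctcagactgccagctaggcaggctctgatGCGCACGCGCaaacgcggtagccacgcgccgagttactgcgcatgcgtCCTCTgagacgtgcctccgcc

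The Rplp0 and Rpl22l1 windows hold no match under these rules. Both do hold a run of C and T after the start. In Rpl22l1 it begins just past the 2 bases allowed, and in Rplp0 further in, so neither was counted. In Mrpl52 the run at the start and the ETS letters overlap. Promoters of 107 of the 121 tested members were in the RefSeq table, searched on both strands (the run at the start on the gene's strand alone) from 250 bases before to 50 after the start. CCGGAAG stood in 41.3% of 46 cytosolic and 34.2% of 73 mitochondrial promoters, against 8.86% of all 32851. The TOP-like run was in 28.3% of the cytosolic and 11.0% of the mitochondrial promoters, against 8.96% of all. Runs that begin farther than 2 bases from the annotated start are left out, so these shares depend on where the start is annotated. The NRF1 motif was in 10.9% and 16.4%, against 4.60%, and AAGATGGC, bound by YY1, in 8.70% and 16.4%, against 2.75%. The E-box CACGTG, bound by Myc, was in 10.9% and 9.59%, against 7.15%, and AACAAAG, a SOX motif, in 2.17% and 2.74%, against 5.85%. Among 9 promoters of 8 genes that fell, CCGGAAG was in 4, the NRF1 motif in 2, the TOP-like run in 2, AACAAAG in 1, and AAGATGGC and CACGTG in 0. Among 64 promoters of mitochondrial members that did not fall, they were in 32.8%, 15.6%, 9.38%, 1.56%, 18.8% and 10.9%, in the same order. Such matches are descriptions of the letters and say nothing of binding.

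Set side by side, the median level of the cytosolic genes was 13.64 and 13.61 on the NSCL61-sox11 arrays, against 13.63 and 13.62 on the NSCL61 arrays (log2). That of the mitochondrial genes was 10.33 and 10.17 on the NSCL61-sox11 arrays, against 10.41 and 10.33 on the NSCL61 arrays. The gap between both medians was 3.30 and 3.43 in NSCL61-sox11 cells, against 3.22 and 3.29 in NSCL61 cells (log2), so the lines did not overlap, but the nearest arrays of both lines lay close together. The gap averaged 3.37 in NSCL61-sox11 cells and 3.25 in NSCL61 cells, a difference of 0.11, with a pooled within-line SD of 0.08. The medians of the log2 fold changes themselves were 0.06 apart. The mitochondrial genes spread more, and 61 of 76 changed by less than 0.3 (log2), against all 45 cytosolic ones.

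**Figure D4:**
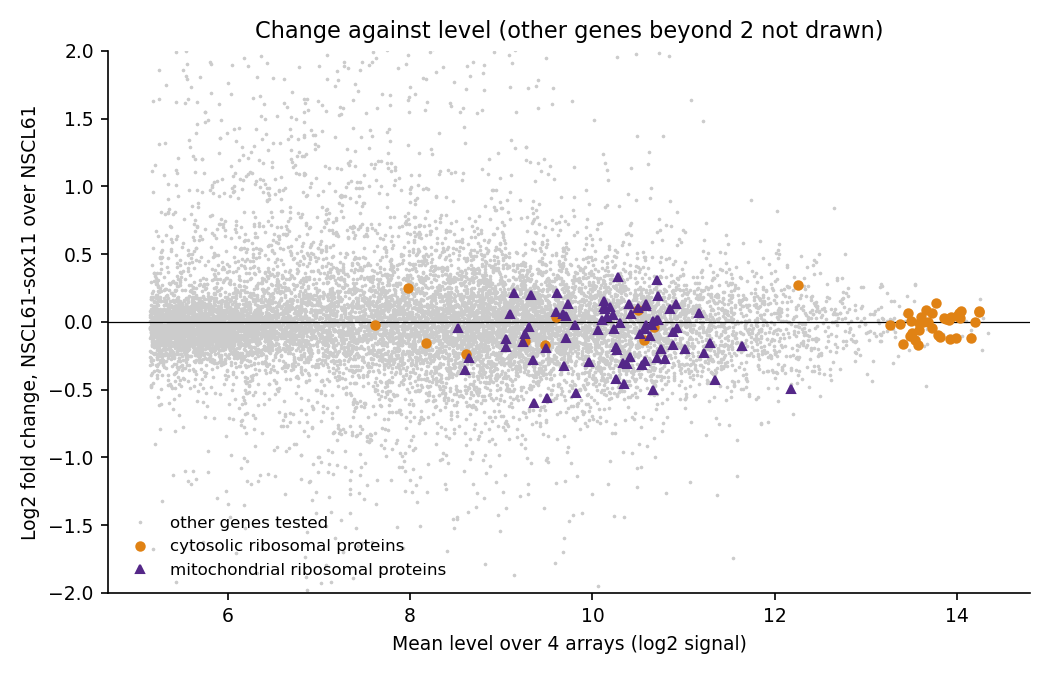
Log2 fold change, NSCL61-sox11 over NSCL61, against mean level (log2 signal) for cytosolic and mitochondrial ribosomal protein genes and, in grey, the other tested genes, of which 140 lie beyond the axis limit of 2. Of the cytosolic members, 34 lie at levels of 13 or more and close to 0 on the vertical axis; mitochondrial members lie at levels of 8.53 to 12.18.

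Of the 11 mitochondrial genes that fell, 3 lie on chromosome 14, 2 on chromosome 7 and 2 on chromosome 3. All 3 mitochondrial members on chromosome 14, Mrpl52, Mrpl57 and Mrps16, fell, with a median log2 fold change of -0.46. Of 414 other genes of that chromosome, 30.2% fell (median -0.21), and its part in the members' falls was not tested. Rps24, the cytosolic member there, had a log2 fold change of -0.17 (adjusted p = 0.056). On chromosome 7, Mrpl17 and Mrpl23 fell among 6 mitochondrial members, and 17.7% of 1019 other genes did. Without chromosome 14, a comparison chosen after seeing the data, 8 of 73 mitochondrial members fell, 11.0%, against 8.48% of 12666 genes. Of the 26 nearest tested neighbours of the 13 called members, by the order of genes in GRCm38.p6, 4 rose, 4 fell and 18 did not pass. Of all genes, 10.0% rose and 9.19% fell. Next to Mrpl52 lies Oxa1l, the insertase of the inner mitochondrial membrane (log2 fold change -0.59, limma, adjusted p = 0.011). Next to Mrps16 lies Anxa7 (-0.57, adjusted p = 0.0087) and next to Mrpl57 Zdhhc20 (-0.39, adjusted p = 0.023). The neighbours on their other side did not pass: Mmp14 (0.17, adjusted p = 0.40), Dnajc9 (-0.19, adjusted p = 0.33) and Ska3 (-0.17, adjusted p = 0.34), in the same order. Beside Mrps28, Tpd52 fell by 1.27 (log2; adjusted p = 0.0018), while Mrpl23 stands beside the imprinted growth factor gene Igf2, which rose by 0.56 (log2; adjusted p = 0.022). Mecom, beside Rpl22l1, rose as well (log2 fold change 2.22, limma, adjusted p = 0.00013). So did Fras1 beside Mrpl1 (1.08, adjusted p = 0.0090) and Lsp1 on the other side of Mrpl23 (0.39, adjusted p = 0.0497). Slc5a3, next to Mrps6, had a log2 fold change of -0.55 (adjusted p = 0.053).

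Genes that build or serve the ribosomes were described from lists of their known roles. In ribosome biogenesis, 11 of 107 fell, 1 rose and 95 did not pass, so 10.3% fell, against 9.19% of all genes. Their median log2 fold change was -0.21, and 95 of 107 values were negative, against 53.3% of all genes. At an unadjusted p under 0.05, 38 were lower and 3 higher, 35.5% and 2.80%, against 17.4% and 17.0% of all genes. The nucleolar GTPases Gnl2 and Gnl3 fell, by 0.62 and 0.53 on the log2 scale (limma, adjusted p = 0.018 and 0.022). Gnl3, which is nucleostemin, had levels of 10.52 and 10.21 in NSCL61-sox11 cells, against 10.90 and 10.89 in NSCL61 cells. Taf1b, a subunit of the RNA polymerase I selectivity factor, rose by 0.56 (log2; adjusted p = 0.023). In this list NSCL61-sox11 array 1 was above array 2 in 105 of 107 genes and NSCL61 array 1 above array 2 in 98, and the part of this in its median was not tested.

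Of 50 cytosolic translation factors, 3 rose and 8 fell, 22.0% together, against 19.2% of all genes (median log2 fold change -0.05). Eif3f and Eif4g3, of the initiation machinery, fell by 0.43 and 0.50 (log2; adjusted p = 0.0036 and 0.014). Eef2k, the kinase that inhibits elongation factor eEF2, rose by 0.74 (adjusted p = 0.015), with levels of 7.35 and 7.69 in NSCL61-sox11 cells, against 6.75 and 6.82 in NSCL61 cells. Among 18 other genes with TOP messenger RNAs, 3 fell (16.7%, against 9.19% of all genes) and 15 did not pass: Eif3f, which both lists hold, Eif4b (log2 fold change -0.35, adjusted p = 0.0084) and vimentin, Vim (-0.21, adjusted p = 0.020). In the aminoacyl-tRNA synthetases of the cytosol, which charge transfer RNAs, 3 of 21 fell (14.3%), Cars (log2 fold change -0.63, adjusted p = 0.0067), Rars (-0.55, adjusted p = 0.0035) and Kars (-0.45, adjusted p = 0.0075).

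Around the mitochondrial ribosome, 4 of 31 translation factors and synthetases fell (12.9%, against 9.19% of all genes) and 27 did not pass (median log2 fold change -0.11). They include the synthetases Mars2 (log2 fold change -0.77, limma, adjusted p = 0.019), Iars2 (-0.70, adjusted p = 0.0088) and Ears2 (-0.41, adjusted p = 0.037). Of 38 genes for its assembly and proteins with other symbols, 3 fell (7.89%) and 35 did not pass: Oxa1l, the ribosomal RNA methyltransferase Mrm1 (log2 fold change -0.57, adjusted p = 0.013) and Chchd1, a small-subunit protein (-0.37, adjusted p = 0.019). Among 20 regulators of mitochondrial transcription, replication and biogenesis, 1 rose (5.00%, against 10.0% of all genes) and 19 did not pass. That gene, Ppargc1b, a coactivator of mitochondrial biogenesis, had levels of 6.50 and 6.21 in NSCL61-sox11 cells, against 5.18 and 4.73 in NSCL61 cells (log2; adjusted p = 0.0045). The mean of NSCL61 is under the filter's lowest mean of 5.15, so no fold is given.

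Among 29 Myc and mTOR regulators of translation, 2 rose and 5 fell (6.90% and 17.2%, against 10.0% and 9.19% of all genes), and their median log2 fold change was 0.01. Deptor, an inhibitor that binds mTOR, had levels of 8.34 and 8.40 in NSCL61-sox11 cells, against 9.96 and 9.51 in NSCL61 cells (log2 fold change -1.37 ± 0.15; limma, adjusted p = 0.0027). Mtor itself fell by 0.41 (log2; adjusted p = 0.039) and Rps6kb2, an S6 kinase, rose by 0.55 (adjusted p = 0.013). Myc, an activator of ribosome genes, had a log2 fold change of -0.37 (adjusted p = 0.14).

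**Figure D5:**
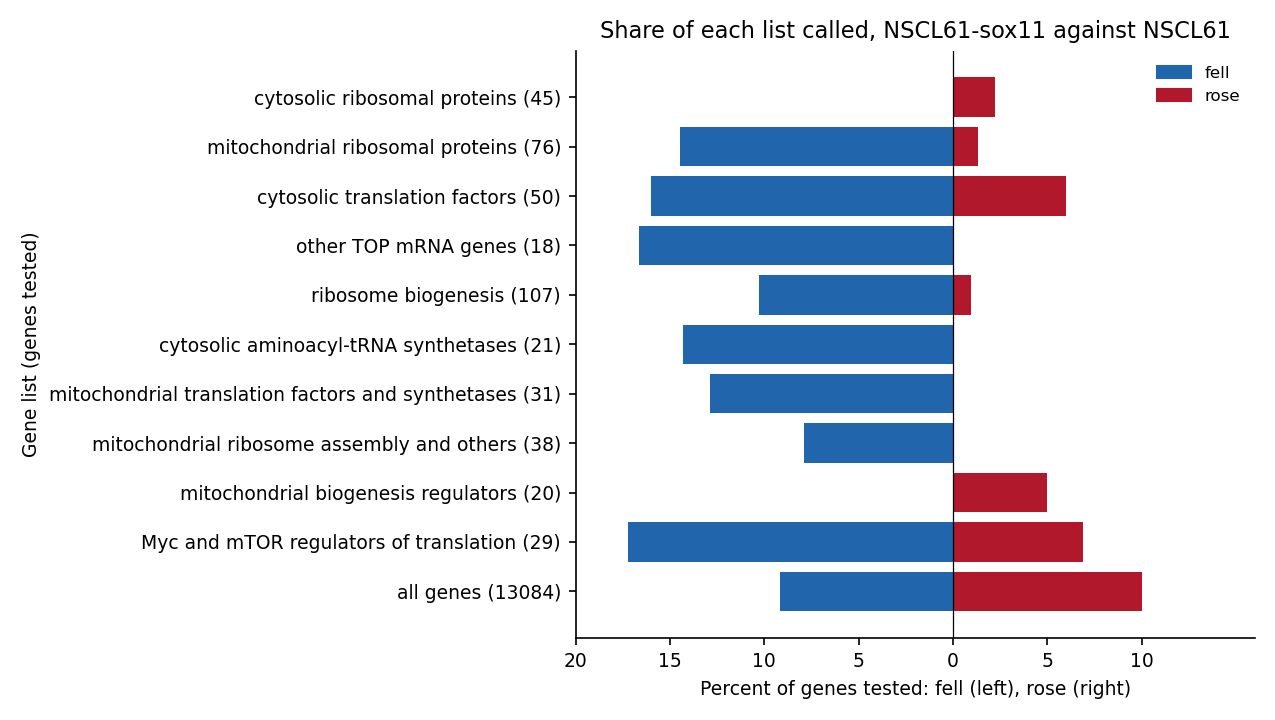
Share of tested genes in each list that fell (left, blue) or rose (right, red) in NSCL61-sox11 against NSCL61 cells, in percent, with the number tested in brackets. Cytosolic ribosomal proteins have the 1 rise, mitochondrial ones 14.5% falls, and the lowest bar pair gives all genes, at 9.19% and 10.0%.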

How the data were processed

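Biotin-labelled RNA of 2 samples per line was hybridised to 1 Affymetrix M430_2 array each, per the labels' protocols. The authors deposited 1 processed log2 value per array for 45101 probe sets. The log2 scale is inferred from the range of 2.13 to 14.62. The authors' summarisation, normalization and log base are not given in the sources used here, and no further scaling was applied.

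Gene names came from GEO's annotation of the platform, checked against the RefSeq gene table of GRCm38.p6, which updated 0 symbols. Of the probe sets, 34945 have 1 symbol and 932 several; the latter were not named. Each gene is represented by its brightest tested probe set. The members have 234 tested probe sets, and those that are not representatives are given for some genes only. The 64 control probe sets were left out.

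NSCL61-sox11 was set against NSCL61 by a two-sided test in limma 3.58.1 under R 4.3.3 (lmFit, then eBayes with trend) on the brightest 60% of probe sets, 27022 with means of at least 5.15, and p-values were adjusted over them by Benjamini-Hochberg and called under 0.05. There are 2 residual degrees of freedom, 6.36 after moderation; the number of arrays limits the precision, and an exact permutation test of 2 arrays against 2 cannot go below 0.333. A log2 fold change has its moderated SE beside it. Scripts were tested on simulated data, and figures drawn with matplotlib 3.10.9.

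Members, lists and tests were chosen with earlier results of these data known. Named are, per ribosome, the 8 largest rises and falls among called genes without array overlap, and the 3 brightest. Paralogs and genes of separate known roles are named too, and in each list around the ribosomes up to 3 called genes or the 2 brightest. Of the cell type markers only some are named. Genes named for a second probe set, a neighbour, a place just outside the threshold or completeness of the 13 called, and Mrps36, Rpl22 and Myc, were added after their values were seen. Alternatives were other filters, quantile normalization, centring, control scaling, probe set choices, no trend, the array number as a block, and leaving out each array.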

Additional observations from a re-analysis of the deposited data

How the results depend on the processing

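The difference of both sets' median log2 fold changes (0.06) cannot move under centring, control scaling, the block or the fit without a trend, which shift all genes alike or leave fold changes as they are. Without single arrays it lay between 0.0082 and 0.11, the lower value being that without NSCL61-sox11 array 2. The count of called cytosolic genes (1) was 2 with the brightest 40% of probe sets, with quantile normalization or with hybridisation-control scaling, 3 with arrays centred on their median or without _x_at and _s_at probe sets, and 0 with poly-A scaling, without an intensity trend or without paralogs and proteins that are not ribosomal (limma; 4, 2 and 8 at an unadjusted p under 0.05); without single arrays it ran from 0 to 8. The count of called mitochondrial genes (12) was 21 with hybridisation-control scaling and 7 when a gene's probe sets were averaged or no intensity trend was fitted; without single arrays it ran from 0 to 23. Hybridisation-control scaling called 27.6% of mitochondrial and 4.44% of cytosolic members, against 23.2% of all genes. Averaging called 9.21% of mitochondrial members, against 18.8%, and the fit without a trend 9.21%, against 15.9%. The share of all genes was 24.7% with the brightest 40%, 19.4% with quantile normalization, 19.3% with centring and 19.2% without _x_at and _s_at probe sets. With poly-A scaling it was 10.3%. The array number as a replicate block rests on 2 pairs that nothing else ties together (deviations correlate at 0.41). With it, 10 cytosolic, 29 mitochondrial and 4830 genes in all were called (22.2%, 38.2% and 36.9%). Over all genes, 1354 were called with poly-A scaling (303 rose and 1051 fell) and 908 to 2692 without single arrays; hybridisation-control scaling split the calls into 702 rises and 2336 falls. Poly-A scaling moved the median log2 fold changes to -0.40 and -0.46 and hybridisation-control scaling to -0.22 and -0.27 (cytosolic, mitochondrial), by shifts of -0.40 and -0.22 common to all genes; without single arrays the mitochondrial median ran from -0.13 to 0.0053. Rpl22l1 and Mrpl27 turned to -0.13 and -0.10 with poly-A scaling (adjusted p = 0.69 and 0.78), the shift of the scale itself.

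Of 14 alternatives, Mrps6 passed in 13, Mrpl23, Mrps28 and Mrpl52 in 12, Mrpl17 and Mrpl57 in 11, Mrpl38 in 10, Rpl22l1 in 9, Mrpl27, Mrpl24 and Mrps16 in 8, Mrps34 in 7 and Mrpl1 in 6. Leaving out an array leaves its line with 1, which is assumed to vary like the arrays of the other line. Without NSCL61 array 2 all 13 lost the call, as calls over all genes went down to 944, while the log2 fold change was -0.59 for Mrpl23, -0.51 for Mrps28 and -0.46 for Mrpl52. Of the cytosolic genes, 34 lie at levels of 13 or more, where the highest value of the table is 14.62; 4 were below the signal filter.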
